A study of Homo sapiens with 6 samples.

Results

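The genes described here are those whose symbols begin with EIF, the symbols given to eukaryotic translation initiation factors, with the EIF2AK kinases of eIF2 left out. The rule found 52 symbols among the 16489 genes of the series. All 52 were in the authors' spike-in table and 51 were in the FPKM table, which does not list EIF4EBP3. By function they fall into 11 classes. 4 of them, EIF2C1 to EIF2C4, are older symbols of the Argonaute proteins AGO1 to AGO4, which bind small RNAs and are not initiation factors, so 48 members remain under the name.

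The study used KMS-27, a cell line from the plasma cell cancer multiple myeloma, in which Che-1, the product of AATF, was silenced with an siRNA (siChe-1) or left intact with a control siRNA (siControl), with 3 libraries each. Apart from the siRNA, no treatment, time point or further genetic change is named for either group. All libraries come from 1 cell line, and nothing in the labels says whether the 3 libraries of a group were separate cultures. The p-values below therefore reflect only how these libraries vary, and that variation may be technical.

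Initiation begins when eIF2, bound to GTP, brings the initiator tRNA to the small ribosomal subunit, together with eIF1, eIF1A and the large complex eIF3. The cap-binding protein eIF4E, the scaffold eIF4G and the RNA helicase eIF4A, together called eIF4F, recruit this subunit to the mRNA, which it scans to the start codon. eIF5 then triggers GTP hydrolysis, eIF5B joins the large subunit, and eIF2B reloads eIF2 with GTP. The 4E-binding proteins hold eIF4E away from eIF4G until the kinase mTOR phosphorylates them, and plasma cells, which secrete large amounts of antibody, depend on a high rate of translation.

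Both scales used here come from the same cells and answer different questions. Against the spike-ins, external RNAs added to each library, a value shows the amount of a transcript per amount of added RNA. Relative to other genes, a value shows a transcript's share of the library. The relative scale is FPKM, the fragments of a transcript per kilobase of its length and per fixed number of fragments in the library, summed over a gene's transcripts and rescaled between libraries. It covers all 6 libraries, listed by position and without replicate numbers. FPKM values are given as siControl positions 1 to 3, then siChe-1 positions 1 to 3. A change on it is a difference of log2(FPKM + 1), which understates changes of low genes.

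AATF was at 93.8, 88.7 and 112 FPKM in siControl, whereas the siChe-1 libraries had 14.9, 14.8 and 17.1 (limma log2 change -2.57 ± 0.11, SE, adjusted p 0.000117). The cells carried the markers of plasma cells: 8 of 8 had a mean of at least 100 normalized reads in the authors' deposited table. Of the markers of other cells, 1 of 3 for T cells and 3 of 3 for myeloid cells were listed there. For red cells 1 of 2 was listed, and for stroma 1 of 3. All of those listed had a mean below 100. The 3 markers of early B cells were not listed and so have no value. The 5 libraries of that table held 19169774 to 21780505 recovered gene reads. siChe-1 replicate 3 is not among them. Its spike-in reads numbered 379232, against 351573 to 519573 in siControl and 835414 and 1041244 in the other siChe-1 libraries, so every spike-in result below holds for siChe-1 replicates 1 and 2 only.

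Relative to other genes, mRNAs with EIF symbols were more often lower than higher in siChe-1. Of 45 members with a mean FPKM of at least 10, 3 of them Argonautes, 13 fell, 4 rose and 28 were not called (limma, adjusted p under 0.05). Among all 6285 genes tested, 15.1% were called lower and 15.1% higher. The groups' libraries did not overlap in 22 members that were lower and 4 that were higher, against 22.8% and 22.5% of all genes. The members' median log2 change was -0.23 against -0.00 for all genes, and 36 of the 45 values were negative. The 13 that fell were EIF4E, EIF5A, EIF6, EIF3B, EIF3G, EIF3I, EIF3J, EIF4A1, EIF4A2, EIF4A3, EIF4H, EIF4G2 and EIF2B4. The 4 that rose were EIF4EBP2, EIF4G3 and the Argonautes EIF2C2 and EIF2C4. The count of falls depended on single libraries: it was 8 without siControl position 1, 5 without siControl position 3, 6 without siChe-1 position 1 and 4 without siChe-1 position 3, and calls over all genes also became fewer there (11.7%, 8.91%, 9.50% and 7.98% lower). EIF4E, EIF5A, EIF3B, EIF4A3, EIF4EBP2, EIF4G3 and EIF2C2 kept their call in every setting tried. edgeR on reads recovered for 5 of the libraries, scaled to other genes by TMM (trimmed mean of M-values), called 21 of 43 members lower and 6 higher, against 15.3% and 13.5% of 12468 genes. Without siControl replicates 1 or 3 or siChe-1 replicates 1 or 2 it called 11, 9, 10 and 10 lower (11.8%, 9.33%, 8.60% and 8.47% of all genes) and 3, 3, 5 and 3 higher (10.5%, 8.71%, 7.92% and 7.83%).

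**Figure D1:**
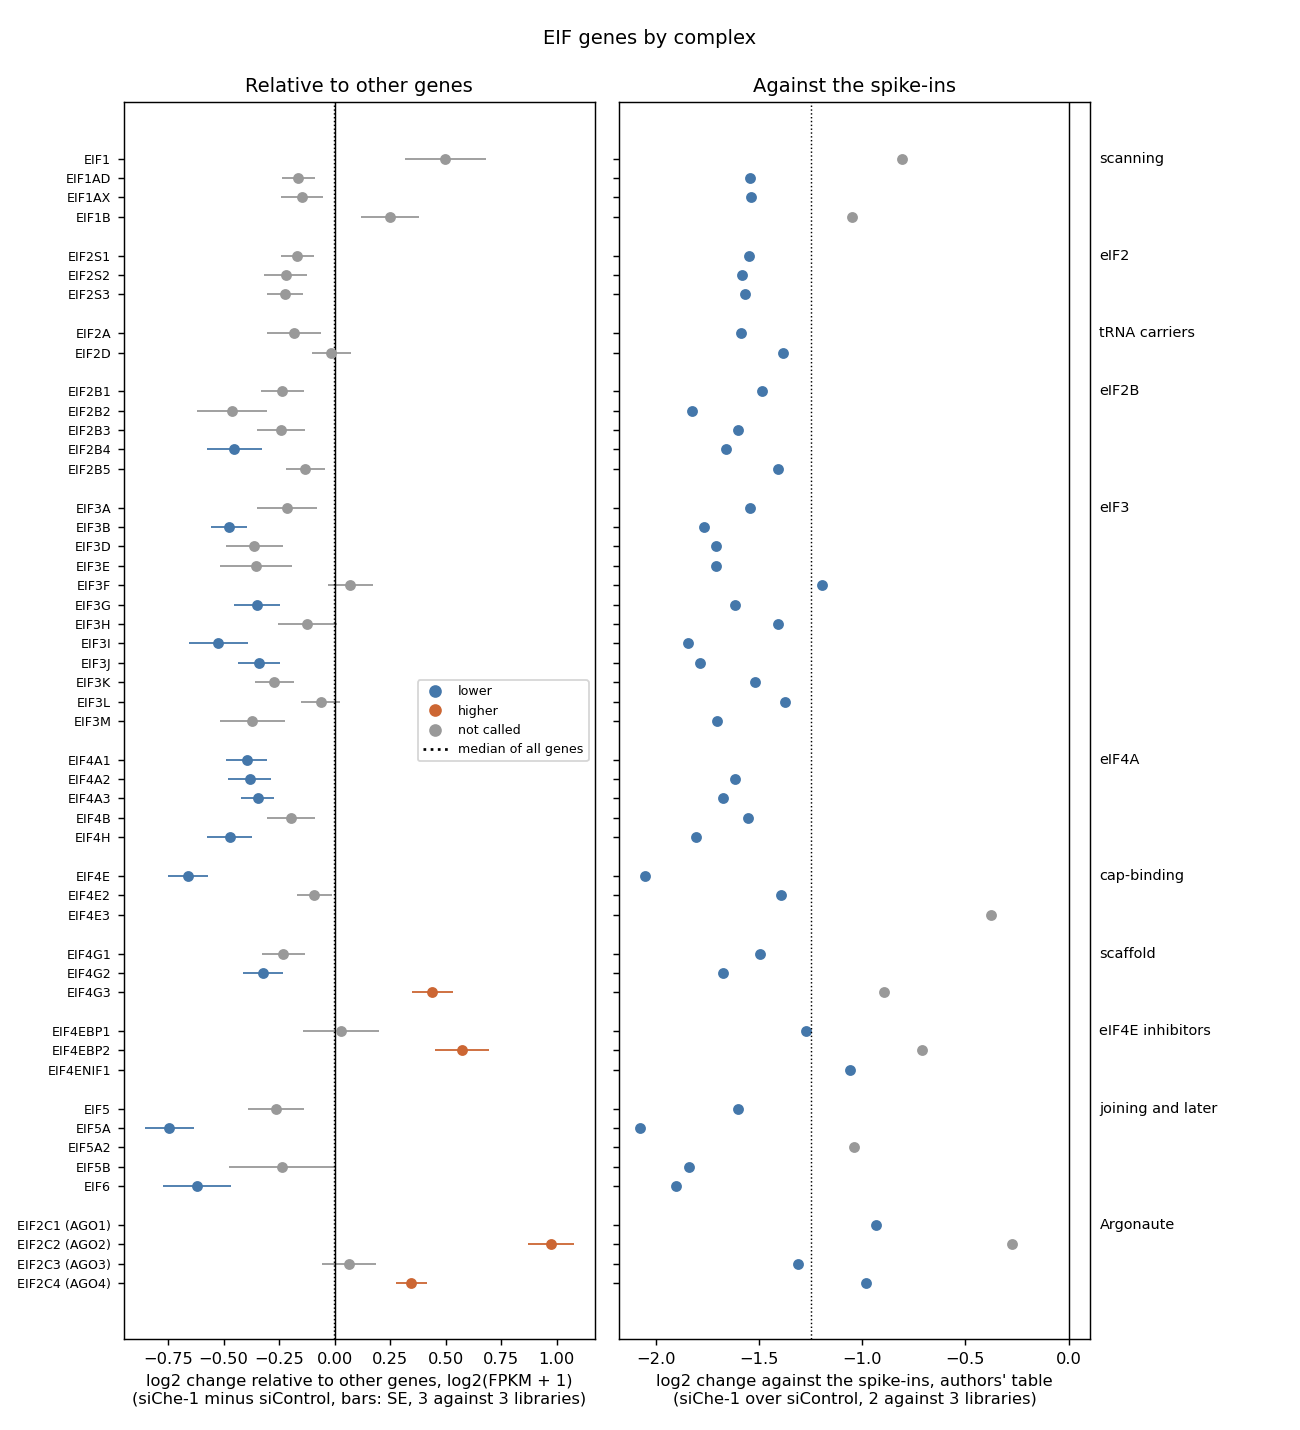
Change of each EIF gene between siChe-1 and siControl, by class. Left, limma difference of log2(FPKM + 1) with its SE for 45 genes (3 against 3 libraries); right, the authors' log2 fold change against the spike-ins for 48 genes (2 against 3 libraries). The dotted lines mark the median of all genes, -0.00 and -1.25. EIF4E and EIF5A lie far to the left on both scales, while EIF2C2 is farthest right on both.

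Promoter sequence is shown for 6 members, chosen after the windows had been searched. EIF4E, EIF4A3 and EIF4H are the 3 members that fell and hold the motif described here. EIF3B also fell and EIF4EBP2 rose, both without it, and EIF5A2 is the scarcer member of a pair described below. Each is the run of 250 bases upstream of the RefSeq start (GRCh38.p14), 5′ to 3′ on the gene's strand, and capitals mark CACGTG, the E-box that MYC and related factors can bind. This motif reads the same on both strands.

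EIF4E: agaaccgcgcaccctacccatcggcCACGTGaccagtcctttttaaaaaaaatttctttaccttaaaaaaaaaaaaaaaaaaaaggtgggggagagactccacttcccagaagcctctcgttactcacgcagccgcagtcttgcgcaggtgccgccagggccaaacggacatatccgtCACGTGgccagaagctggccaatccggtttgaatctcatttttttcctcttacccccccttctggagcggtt

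EIF4A3: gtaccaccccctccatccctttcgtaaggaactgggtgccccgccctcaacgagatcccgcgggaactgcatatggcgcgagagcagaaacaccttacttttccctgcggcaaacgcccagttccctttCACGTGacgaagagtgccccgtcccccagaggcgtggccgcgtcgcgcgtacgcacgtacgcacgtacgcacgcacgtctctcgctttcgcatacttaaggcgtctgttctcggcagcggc

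EIF4H: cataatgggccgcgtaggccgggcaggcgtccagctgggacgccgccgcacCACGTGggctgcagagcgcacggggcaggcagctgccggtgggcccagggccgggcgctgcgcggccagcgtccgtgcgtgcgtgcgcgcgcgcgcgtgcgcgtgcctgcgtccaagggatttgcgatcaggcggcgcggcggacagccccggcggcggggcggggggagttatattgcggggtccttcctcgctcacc

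EIF3B: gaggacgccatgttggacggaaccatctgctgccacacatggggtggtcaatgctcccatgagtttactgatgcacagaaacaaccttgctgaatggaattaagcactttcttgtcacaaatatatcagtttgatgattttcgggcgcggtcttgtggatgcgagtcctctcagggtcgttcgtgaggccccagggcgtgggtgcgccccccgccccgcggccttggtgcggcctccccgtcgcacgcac

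EIF4EBP2: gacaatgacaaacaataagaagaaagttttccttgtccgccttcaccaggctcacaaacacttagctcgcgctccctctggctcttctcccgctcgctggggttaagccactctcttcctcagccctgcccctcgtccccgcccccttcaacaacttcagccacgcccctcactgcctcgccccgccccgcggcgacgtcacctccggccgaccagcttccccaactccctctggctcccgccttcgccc

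EIF5A2: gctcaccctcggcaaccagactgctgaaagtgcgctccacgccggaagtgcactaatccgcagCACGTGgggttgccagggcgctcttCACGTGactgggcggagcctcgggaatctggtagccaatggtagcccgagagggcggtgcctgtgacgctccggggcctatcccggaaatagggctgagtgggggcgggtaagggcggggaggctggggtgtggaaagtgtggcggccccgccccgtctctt

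The EIF4E window (chr4:98929134-98929383, minus strand) holds the motif at 225 and 72 bases before the start. EIF4A3 (chr17:80147129-80147378, minus strand) holds it at 121 bases and EIF4H (chr7:74174106-74174355, plus strand) at 199 bases. EIF3B (chr7:2354577-2354826, plus strand) and EIF4EBP2 (chr10:70403895-70404144, plus strand) hold none, as do the windows of EIF5A, the member with the largest fall, and EIF5A2 (chr3:170908638-170908887, minus strand) holds it at 187 and 162 bases. Of 43 members with a RefSeq window, 11 held the motif in at least 1 window (25.6%), against 7.73% of 27305 genes. Those 27305 are not limited to the 16489 genes of the series. The share among expressed genes was not taken, so the difference may not be particular to these members. The motif did not separate the members by their change: it was present in 3 of 12 that fell, 0 of 3 that rose and 6 of 22 that were tested and not called. MYC itself fell from 284 ± 16.5 to 150 ± 9.87 FPKM (SD, n = 3), by 0.92 ± 0.10 (SE) on the log2 scale (limma adjusted p 0.00109). A match is a stretch of letters, and binding was not measured.

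The cap-binding proteins moved apart. EIF4E, which holds the mRNA cap (hg19 chr4:99799607-99851786, minus strand, the span given for its locus), stood at 97.5, 85.4 and 87.9 FPKM in siControl and at 60.5, 53.7 and 55.9 in siChe-1. All siChe-1 libraries lay below all controls. Its relative level fell by 0.66 ± 0.09 (SE) on the log2 scale (limma adjusted p 0.00244). EIF4E2, a relative that binds the cap without eIF4G and is known as a repressor, was at 43.2, 48.7 and 48.3 and at 42.6, 44.7 and 43.9 FPKM, with overlapping groups (log2 change -0.09, limma adjusted p 0.419). EIF4E3, a scarcer relative (hg19 chr3:71728440-71804328, minus strand), was at 4.20, 3.55 and 3.47 FPKM in siControl and at 7.90, 6.89 and 8.15 in siChe-1. Its siChe-1 libraries were all above the controls, a ratio of means of 2.04. Its FPKM was under the minimum of 10 for the main test. TMM scaling of the recovered reads gave it a rise of 0.85 ± 0.12 (SE, edgeR adjusted p 0.000364).

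The proteins that hold eIF4E away from eIF4G also differed among themselves. EIF4EBP2 (hg19 chr10:72163861-72188374, plus strand) was at 30.1, 34.3 and 26.4 FPKM in siControl and at 45.7, 50.7 and 40.0 in siChe-1. The groups did not overlap, and the rise was 0.57 ± 0.12 (SE, limma adjusted p 0.0123). EIF4EBP1, the most abundant member of the class, was at 43.0, 66.0 and 59.6 and at 50.0, 65.9 and 54.8 FPKM. Its groups overlapped throughout (log2 change 0.03 ± 0.17, SE, limma adjusted p 0.914). EIF4ENIF1, which carries eIF4E into the nucleus, had an FPKM of 5.48 ± 0.91 and 6.63 ± 0.77 (SD, n = 3), with overlapping groups and below the test's minimum. EIF4EBP3 had 2 reads in siControl replicate 1 and 0 in siChe-1 replicate 2, too few for a comparison.

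Among the eIF4G scaffolds, which join eIF4E to eIF4A and eIF3, 1 fell and 1 rose. EIF4G3 was at 17.0, 18.9 and 16.1 FPKM in siControl and at 23.4, 25.9 and 22.3 in siChe-1, with all siChe-1 libraries higher (0.44 ± 0.09, SE, limma adjusted p 0.0108). EIF4G2, which lacks the eIF4E-binding site and is the most abundant of the class, was at 345, 317 and 319 and at 270, 254 and 259 FPKM. All siChe-1 libraries were lower, by 0.32 ± 0.09 (SE, limma adjusted p 0.0319). EIF4G1, the main scaffold of eIF4F, was at 131, 135 and 121 and at 107, 120 and 103 FPKM. Its libraries did not overlap either, but it was not called (-0.23 ± 0.10, SE, limma adjusted p 0.107). The EIF4G2 call was lost when any 1 of the 6 libraries was left out (limma adjusted p from 0.0536 to 0.115). In all, it was lost in 7 of the 12 settings tried for this gene.

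The helicases and their partners gave the highest share of falls of any class with more than 2 tested members: 4 of 5 were lower and 0 higher (limma, 0 higher also at an unadjusted p under 0.05). EIF4A1, the helicase of eIF4F, was at 153, 166 and 166 FPKM in siControl and at 120, 131 and 117 in siChe-1. EIF4A2, its close relative, was at 179, 201 and 203 and at 148, 159 and 140. EIF4A3, the related helicase of the exon junction complex, was at 51.2, 50.5 and 53.4 and at 39.9, 39.1 and 42.4. Each of these helicases was lower in every siChe-1 library. The falls were 0.40 ± 0.09 for EIF4A1, 0.38 ± 0.10 for EIF4A2 and 0.35 ± 0.07 for EIF4A3 (SE, limma adjusted p 0.0159, 0.0229 and 0.0120). EIF4H, which stimulates the helicase, was at 128, 147 and 135 FPKM in siControl and at 90.8, 107 and 97.0 in siChe-1, again without overlap (-0.47 ± 0.10, SE, limma adjusted p 0.0124). EIF4B, a stimulator with a similar role and the most abundant of the class, was at 390, 320 and 367 and at 325, 294 and 319, with overlapping groups (-0.20 ± 0.11, SE, limma adjusted p 0.215). EIF4A1 lost its call without siControl position 3 or siChe-1 positions 1 or 3, EIF4A2 without siControl positions 2 or 3 or siChe-1 positions 1 or 3, and EIF4H without siChe-1 position 3 (limma adjusted p up to 0.0776, 0.101 and 0.0558).

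**Figure D2:**
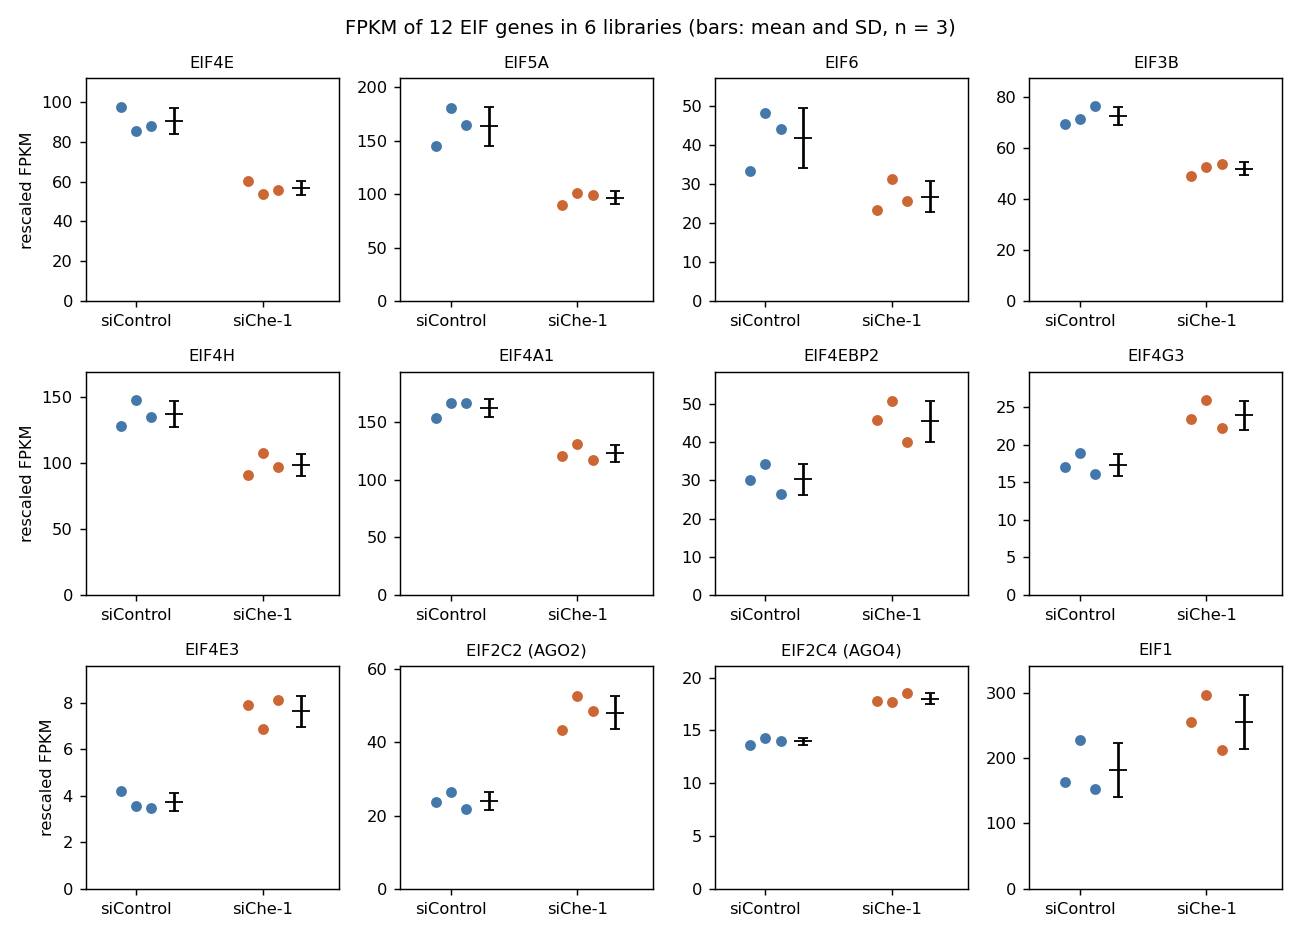
Rescaled FPKM of 12 EIF genes in each of 6 libraries, with the mean and SD of each group (n = 3) beside the points; every axis starts at 0. In EIF4E, EIF5A, EIF6, EIF3B, EIF4H and EIF4A1 all siChe-1 points lie below the controls, in EIF4EBP2, EIF4G3, EIF4E3, EIF2C2 and EIF2C4 all lie above, and in EIF1 the groups overlap.

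Of the eIF3 subunits, 4 of 12 tested fell and 0 rose (limma, 0 higher also at an unadjusted p under 0.05), with a class median of -0.35. EIF3B, a core scaffold of the complex, was at 69.6, 71.6 and 76.6 FPKM in siControl and at 49.1, 52.7 and 53.9 in siChe-1, with no overlap (-0.48 ± 0.08, SE, limma adjusted p 0.00568). Its partner EIF3I was at 207, 177 and 234 and at 147, 127 and 155 FPKM (-0.52 ± 0.13, SE, limma adjusted p 0.0218). EIF3G, which binds the same core, was at 73.5, 82.8 and 77.8 and at 56.2, 69.1 and 58.4 FPKM (-0.35 ± 0.10, SE, limma adjusted p 0.0385). These 3 subunits belong to one module of the complex, and in each the siChe-1 libraries were below all controls. EIF3J, a loosely attached subunit, was at 78.7, 71.5 and 73.3 and at 61.5, 52.5 and 62.0 FPKM, also without overlap (-0.34 ± 0.09, SE, limma adjusted p 0.0311). EIF3I and EIF3J each lost their call when any library except siControl position 2 was left out, and EIF3G when any except siChe-1 position 2 was (limma adjusted p up to 0.0731, 0.0871 and 0.136). EIF3G also lost it when libraries were scaled by their upper quartile (limma adjusted p 0.0922).

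limma called none of the other 8 tested eIF3 subunits, of which 3 were lower at an unadjusted p under 0.05. TMM on the recovered reads called EIF3D, EIF3K and EIF3M lower (edgeR adjusted p 0.0152, 0.0470 and 0.0121). EIF3E was the most abundant member of the whole family, at 1392, 981 and 1192 FPKM in siControl and 1078, 814 and 886 in siChe-1. Its libraries differed widely within each group and overlapped (-0.35 ± 0.16, SE, limma adjusted p 0.139). EIF3F was the only subunit with a positive value, 0.07. EIF3C and EIF3CL are near-identical copies, and both were given the same locus span. They were listed at 1.33 ± 0.26 and 0.55 ± 0.38 FPKM in siControl (SD, n = 3) and at 0 in the authors' deposited table, so their levels are uncertain.

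The subunits of eIF2 and the other carriers of tRNA all had negative values, none beyond -0.22 on the log2 scale. None of the 3 subunits of eIF2 was called by limma, although 1 was lower at an unadjusted p under 0.05, and TMM on the recovered reads called all 3 lower (edgeR). EIF2S2, the most abundant, was at 169, 156 and 186 FPKM and at 148, 141 and 149. EIF2S1, the subunit whose phosphorylation slows initiation, was at 33.8, 36.6 and 33.7 and at 32.3, 29.0 and 31.0, and EIF2S3, which binds GTP, at 173, 167 and 166 and at 147, 140 and 147. In all 3 subunits the siChe-1 libraries lay just below the controls, and the values were close together, from -0.22 to -0.17 on the log2 scale. EIF2A and EIF2D, which can bring tRNA without eIF2, were at -0.18 and -0.01, and neither was called by limma (limma adjusted p 0.297 and 0.923). EIF2A, the more abundant, was at 65.2, 52.5 and 65.4 FPKM and at 56.5, 46.8 and 57.5, with overlapping groups.

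Of the 5 subunits of eIF2B, the exchange factor of eIF2, 1 fell. EIF2B4 was at 19.7, 17.5 and 23.4 FPKM in siControl and at 16.3, 13.7 and 13.3 in siChe-1, with no overlap (-0.45 ± 0.12, SE, limma adjusted p 0.0300). This call was lost without siControl positions 1 or 3 or siChe-1 positions 2 or 3 (limma adjusted p up to 0.108). EIF2B2 had a similar value but was not called, at 39.2, 27.8 and 40.5 and at 27.7, 21.6 and 27.1 FPKM (-0.46 ± 0.16, SE, limma adjusted p 0.0600). EIF2B5, the catalytic subunit, was at -0.13, and all 5 values were negative.

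EIF1, which guards the choice of start codon, was the main exception among the abundant factors. It stood at 164, 228 and 152 FPKM in siControl and at 255, 296 and 213 in siChe-1. The groups overlapped through siControl position 2, and limma did not call it (0.50 ± 0.18, SE, adjusted p 0.0756). Without that library limma gave 0.67 (adjusted p 0.0159), and TMM on the recovered reads gave 0.46 (edgeR adjusted p 0.0339). Its relative EIF1B was at 9.48, 11.7 and 9.17 and at 14.0, 11.5 and 11.1 FPKM, with overlapping groups (0.25 ± 0.13, SE, limma adjusted p 0.191). EIF1AX, which works with EIF1 in scanning, was at -0.15, and EIF1AD was at -0.16. limma called 0 of the 4 in either direction; at an unadjusted p under 0.05, 1 was higher and 0 were lower.

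Of 4 tested factors of subunit joining and later steps, EIF5A and EIF6 fell. EIF5A, which helps the ribosome past difficult peptide bonds and carries the amino acid hypusine (hg19 chr17:7210318-7215782, plus strand), was at 145, 180 and 165 FPKM in siControl and at 89.7, 101 and 99.6 in siChe-1. Every siChe-1 library was below every control, and the fall of 0.74 ± 0.11 (SE) was the largest of the 45 members (limma adjusted p 0.00324). EIF6, which keeps the large subunit from joining too early and takes part in its maturation, was at 33.3, 48.1 and 44.1 and at 23.4, 31.2 and 25.7 FPKM. The groups did not overlap (-0.62 ± 0.15, SE, limma adjusted p 0.0216), but the call was lost without siControl position 3 or siChe-1 positions 1 or 3 (limma adjusted p up to 0.0795). EIF5, the trigger of GTP hydrolysis, was at -0.26 (limma adjusted p 0.151) and EIF5B at -0.24 (limma adjusted p 0.498). EIF5A2, a scarce relative of EIF5A, was at 1.18, 0.67 and 0.83 and at 1.18, 0.95 and 1.24 FPKM, with overlapping groups and below the test's minimum.

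The Argonautes differed from the factors whose symbol they share, and 2 of the 3 tested rose. EIF2C2 (AGO2), the Argonaute that can cut its target RNA, had the largest change of the 45 tested members: 23.8, 26.5 and 21.8 FPKM in siControl and 43.4, 52.6 and 48.6 in siChe-1. Its siChe-1 libraries were all well above the controls, a rise of 0.97 ± 0.10 (SE, limma adjusted p 0.00109). EIF2C4 (AGO4) was at 13.6, 14.3 and 14.0 and at 17.8, 17.7 and 18.6 FPKM, without overlap (0.35 ± 0.07, SE, limma adjusted p 0.0108), and lost its call without siChe-1 position 3 (limma adjusted p 0.0513). TMM on the recovered reads did not call it (edgeR adjusted p 0.0626). EIF2C1 (AGO1) was at 5.48, 6.31 and 4.99 and at 6.79, 8.32 and 7.05 FPKM, all siChe-1 libraries higher but below the minimum for the test. EIF2C3 (AGO3) was at 11.8, 10.3 and 10.5 and at 10.8, 10.2 and 13.3 FPKM, with overlapping groups (limma adjusted p 0.721). Without the Argonautes, 2 of 42 tested members rose and 13 fell.

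Ratios within a library need no scaling between libraries, and 11 pairs of related members were compared this way. In 8 pairs the groups did not overlap, 5 with a higher and 3 with a lower ratio in siChe-1. The exact permutation test gave each of these 8 a two-sided p of 0.1, the smallest that 3 against 3 libraries allow, and an adjusted p of 0.138 over the 11 pairs, so none passed 0.05. The pairs share members: 3 are ratios to EIF2C2, 2 to EIF4E and 2 to EIF4G1.

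The log2 ratio of EIF4E3 to EIF4E was -4.54, -4.59 and -4.66 in the controls, and -2.94, -2.96 and -2.78 after silencing. The difference of 1.70 was the largest of the pairs, with EIF4E still the more abundant in every library. EIF5A2 over EIF5A moved from -7.55 ± 0.57 to -6.44 ± 0.26 (SD, n = 3). EIF4G3 over EIF4G1 moved from -2.90 ± 0.05 to -2.20 ± 0.01, EIF4E2 over EIF4E from -0.95 ± 0.20 to -0.37 ± 0.12, and EIF4EBP2 over EIF4EBP1 from -0.88 ± 0.33 to -0.32 ± 0.17. In these pairs the numerator gained on its relative in every siChe-1 library. The other Argonautes lost ground to EIF2C2, by 0.93 for EIF2C3, 0.63 for EIF2C4 and 0.60 for EIF2C1 on the log2 scale. EIF4A2 and EIF4A1 kept nearly one ratio, 0.26 ± 0.03 (SD, n = 3) in the controls and 0.28 ± 0.02 after silencing (exact permutation p 0.6). EIF4G2 over EIF4G1 and EIF1B over EIF1 overlapped between the groups (exact permutation p 0.5 and 0.3).

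**Figure D3:**
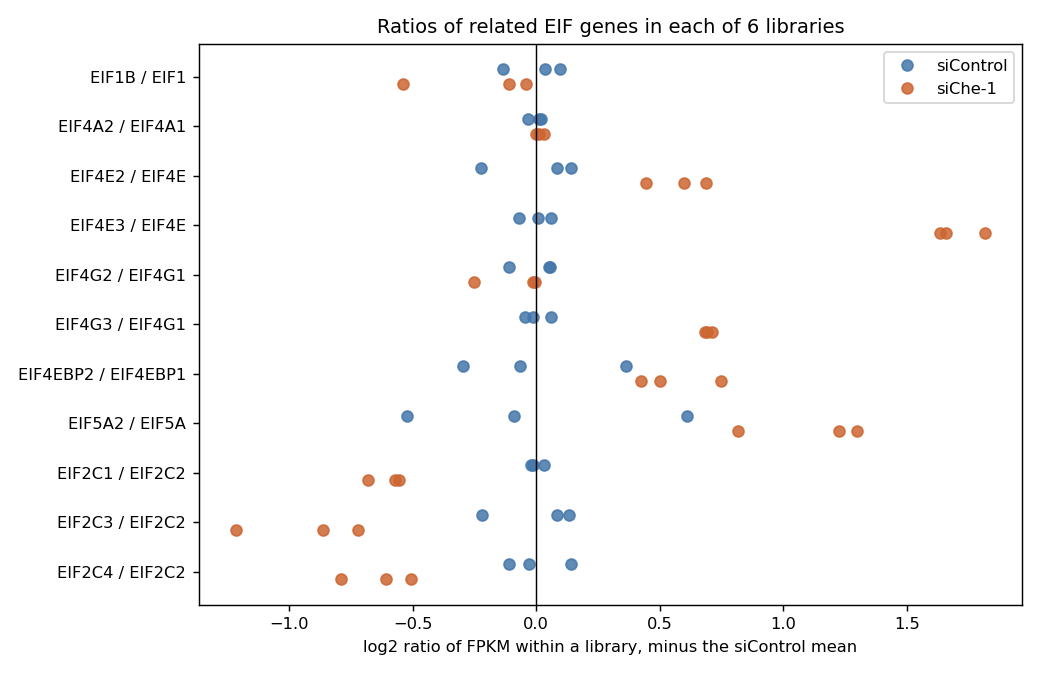
log2 ratio of FPKM of 11 pairs of related EIF genes in each of 6 libraries, less the mean of the siControl libraries of that pair. The siChe-1 points of EIF4E3 / EIF4E lie near 1.70, those of the 3 ratios to EIF2C2 lie below all controls, and those of EIF4A2 / EIF4A1 overlap the controls, with 1 of 3 above them.

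Single transcripts, 81 for these genes, gave fewer calls. Of 53 with a mean FPKM of at least 10, limma called 9 lower and 4 higher, where it called 10% lower and 10.1% higher of all 6602 transcripts tested. Without siChe-1 position 3 only 1 was lower and 1 higher, against 3.33% and 2.92% of all transcripts. With the deposited scaling, where the median of all transcripts was at -0.11, 17 were lower and 2 higher, against 989 and 382 of all 6602. The authors' deposited table has q under 0.05 for 23 of the 81 transcripts as lower and 4 as higher, against 10.2% and 8.05% of its 18750 transcripts. Without siControl positions 1 or 3 or siChe-1 position 1, 5, 3 and 5 were lower, against 6.09%, 3.56% and 4.32% of all, and 1 was higher each time, against 5.97%, 3.54% and 3.88%. Without siChe-1 position 2, 1 was higher, against 6.97%. Both tested transcripts of EIF4E fell, the main one (79.3% of the gene's siControl FPKM) by 0.61 and the other by 0.74 (limma adjusted p 0.0117 and 0.0129). Of EIF4H, the minor transcript (18.4%) fell by 0.71 and the main one was at -0.40 (limma adjusted p 0.00744 and 0.0516). The difference between these transcripts was not tested. EIF4A1, called as a gene, had no transcript called: its minor transcript ranged from 23.0 to 60.7 FPKM within siControl, and its main one from 91.2 to 143.

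Against the spike-ins, nearly all members, Argonautes included, were lower in siChe-1, as were most genes. The authors' deposited table has 48 members whose mean reaches 10, of which 41 were lower at an adjusted p under 0.05 and 0 were higher (0 also at an unadjusted p under 0.05), where 63.5% of all 12591 genes were lower and 0.0635% higher. The members' median in the authors' deposited table was -1.55 and that of all genes -1.25. edgeR on the recovered reads called 41 of 43 members lower and 0 higher (0 also at an unadjusted p under 0.05), against 84.3% and 0.192% of 12468 genes. Without siChe-1 replicate 2 it called 23 members lower, and 22.0% of all genes. All genes of a library share its spike-in factor, so these calls largely carry 1 shift between the libraries. The labels give 500 ng of RNA for every library. Fewer cells, less RNA per cell and unequal addition of spike-ins cannot be told apart in this shift. siChe-1 replicate 3, which is not in this comparison, had 379232 spike-in reads, within the siControl range of 351573 to 519573. EIF4A1 was listed at 0 in the authors' deposited table although its FPKM was above 100. The span given for its locus also holds SENP3.

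The deepest falls against the spike-ins were in EIF5A and EIF4E. EIF4E had 5464, 8099 and 8334 normalized reads in siControl replicates 1 to 3 and 1799 and 1712 in siChe-1 replicates 1 and 2. EIF5A had 6064, 9695 and 9457 and then 2347 and 1638, and both siChe-1 libraries lay far below all controls for each gene. The authors' deposited table gives EIF5A -2.08 and EIF4E -2.06 on the log2 scale (adjusted p 0.000249 and 6.32e-05), followed by EIF6 at -1.90. edgeR gave EIF5A -2.08 ± 0.34 and EIF4E -2.06 ± 0.34 (SE, adjusted p 8.86e-08 and 1.21e-07).

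The members that rose relative to other genes were not higher against the spike-ins. EIF2C2 had 2809, 4292 and 3567 normalized reads in siControl and 3241 and 2633 in siChe-1, and EIF4E3 had 456, 595 and 627 and then 462 and 400. These were the only 2 of the 43 members whose groups overlapped; 89.5% of the 12468 genes had both siChe-1 libraries below all controls. The authors' deposited table gives EIF2C2 -0.28 and EIF4E3 -0.38 (adjusted p 0.675 and 0.511). EIF4EBP2 had 4964, 7976 and 7302 and then 4379 and 3859 normalized reads, below all controls. In the authors' deposited table it was at -0.71 (adjusted p 0.145), EIF1 at -0.81 (0.261) and EIF4G3 at -0.89 (0.0601), and none was called. edgeR called these 3 lower (adjusted p 0.0315, 0.0153 and 0.00837). EIF2C4 was called lower in the authors' deposited table, at -0.98 (adjusted p 0.0368), and by edgeR (adjusted p 0.00503). The other members not called in the authors' deposited table were EIF1B and EIF5A2.

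**Figure D4:**
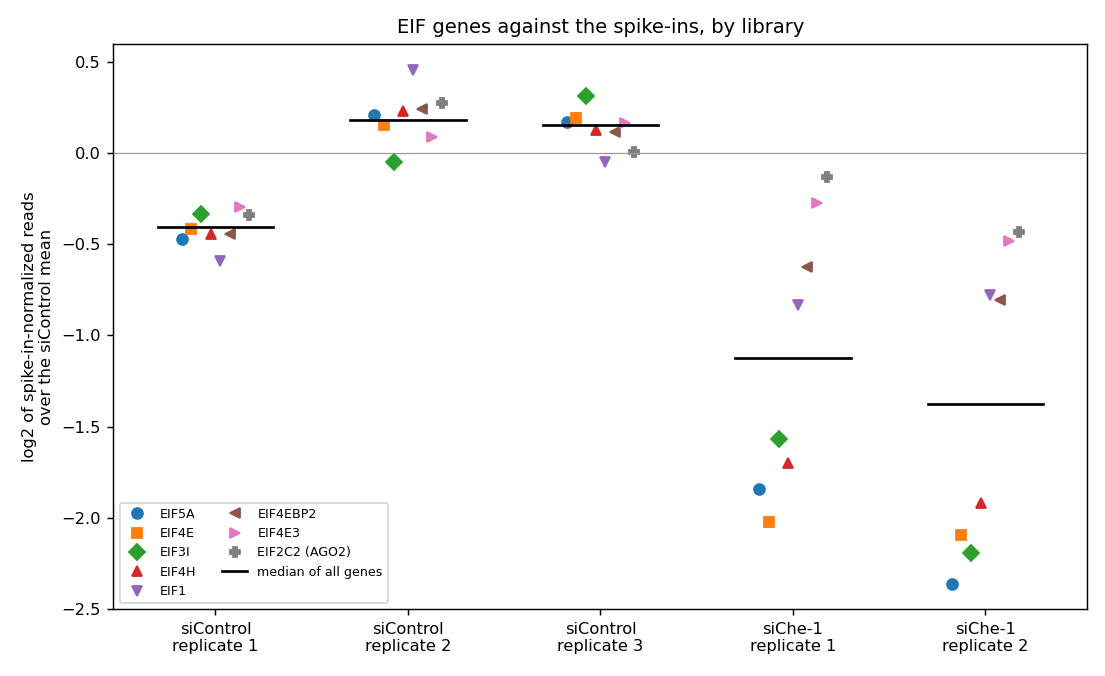
Spike-in-normalized reads of 8 EIF genes in 5 libraries, as log2 over the siControl mean; bars mark the median of all genes, at -0.41, 0.18 and 0.15 in the controls and at -1.12 and -1.38 after silencing. EIF5A, EIF4E, EIF3I and EIF4H lie below the bar in both siChe-1 libraries, and EIF1, EIF4EBP2, EIF4E3 and EIF2C2 lie above it.

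Across the 45 tested members, abundant ones tended to have lower values: Spearman's rho between mean log2 FPKM and log2 change was -0.29, and it was -0.20 over all 6285 genes. Genes of one library share its depth and scaling, so this is a description.

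Other genes of translation, 35 in all, were compared with the same test. Of 30 tested relative to other genes, 9 fell (30%) and 3 rose (10%), against 15.1% and 15.1% of all genes. Among EIF members these shares were 28.9% and 8.89%. Those lower in the authors' deposited table were 30 of 35, or 85.7%, against 63.5% of all genes and 85.4% of EIF members. The larger share of falls was thus not particular to EIF members, and the sets were not tested against each other. Of the 5 tested termination and recycling factors 4 fell, with the smallest p for ETF1, which reads stop codons and went from 124 ± 10.8 to 95.5 ± 5.94 FPKM (SD, n = 3; -0.37, limma adjusted p 0.0289). Of 6 elongation factors 2 fell. EEF1A2, which carries tRNA to the ribosome, fell from 35.5 ± 4.87 to 14.0 ± 3.04 FPKM (SD, n = 3; -1.29, limma adjusted p 0.00174). Among 7 regulators of eIF4F, RPS6KB1, a kinase below mTOR, and CYFIP1 fell, by 0.43 and 0.29 (limma adjusted p 0.0215 and 0.0218). PDCD4, which inhibits eIF4A, rose from 76.1 ± 7.50 to 107 ± 9.36 FPKM (SD, n = 3; 0.48, limma adjusted p 0.0138).

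Of the 3 genes of the eIF2 phosphatase and the response to eIF2 phosphorylation, 2 rose and 0 fell. PPP1R15A, a partner of the phosphatase that restores eIF2, rose from 26.0 ± 3.07 to 42.5 ± 3.39 FPKM (SD, n = 3; 0.69, limma adjusted p 0.00370). PPP1R15B, its constitutive relative, rose by 0.42 (limma adjusted p 0.00849). ATF4, whose translation increases when eIF2 is phosphorylated, was at 0.34 (limma adjusted p 0.0862). All 3 genes were higher at an unadjusted limma p under 0.05. TMM on the recovered reads called all 3 higher (edgeR), against 13.5% of all genes. On the spike-in scale edgeR called 2 of the 3 lower and 0 higher. None of the 4 eIF2 kinases, nor of the 4 tested genes of poly(A) binding, was called by limma. At an unadjusted p under 0.05, 0 kinases and 1 poly(A)-binding gene passed, and TMM on the recovered reads called 0 of the kinases and 1 poly(A)-binding gene in each direction (edgeR).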

How the data were processed

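Libraries of KMS-27 cells were processed on hg19 with TopHat, Cufflinks, Cuffdiff, HTSeq and DESeq2, per the submitters' processing notes, without versions or the role of each. Deposited tables of 3 kinds were used, per the file headers: spike-in read counts of 6 libraries; the authors' means of reads divided by spike-in size factors (a signal), with their ratio, its log2, p-values and adjusted p-values; and transcripts with the authors' FPKM, log2 ratio, p-values and q-values. The signal covers 5 libraries. Whole reads were recovered from it for 16321 of 16444 genes (99.3%). The other 123 genes held 19.7% of the siControl signal and are missing from the recovered reads. EIF3A, EIF3E, EIF4B, EIF4G1 and EIF4G2 allowed more than 1 set of reads and were not tested with edgeR. The kit was stranded, per the labels, but no source used here says whether counting used strand. The scr columns were taken as siControl.

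Relative changes were tested with limma 3.58.1 (trend) on log2(FPKM + 1), with libraries rescaled by the median of ratios, and recovered reads with edgeR 4.0.16 (quasi-likelihood) on spike-in factors or TMM. Two-sided p-values were adjusted with Benjamini-Hochberg over all genes or transcripts tested. Scripts were tried on simulated data. Alternatives were other scalings, minimums and pseudocounts, each library left out, and the Argonautes left out.

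Members, classes, lists and pairs were chosen with earlier results of these data known. Values by library are given for members called by limma, the most abundant of each class and both members of a pair. Of other translation genes, the called gene with the smallest p in each direction of a subgroup is named; CYFIP1, PPP1R15B and ATF4 were added after their values were seen. Locus spans (hg19, 1-based) can include neighbouring genes.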

Additional observations from a re-analysis of the deposited data

How the results depend on the processing

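Relative to other genes, 13 members were lower and 4 higher. Leaving out 1 library gave 4 to 15 lower (fewest without siChe-1 position 3) and 3 to 5 higher. Of all genes, 7.98% to 14.2% were then lower and 7.73% to 13.6% higher. With the deposited scaling 19 members were lower and 4 higher, against 20.35% and 9.42% of all genes. Scaling by the upper quartile gave 11 lower and 4 higher, against 11.3% and 19.4%. A minimum FPKM of 1 gave 16 lower of 50, and no minimum 17 of 51, against 13.8% and 13.1% of all genes. Each of these minimums gave 5 higher, against 13.4% and 12.1%. edgeR with TMM gave 21 lower of 43, against 15.3% of all genes, and leaving out the Argonautes gave 2 higher. Of 17 called members, 7 kept their call in each of up to 14 settings, 10 lost it in at least 1 and 0 changed sign. On the spike-in scale, edgeR called 41 lower and 0 higher, against 84.3% and 0.192% of all genes. With TMM the same reads gave 21 and 6, and with the median of ratios 20 and 6 (15.2% and 13.7% of all genes). Leaving out 1 siControl library on the spike-in scale gave 35 to 43 lower, against 65.6% to 93.1% of all genes. Leaving out a siChe-1 library leaves 1 in its group and gave fewer calls. The median log2 change over all genes was then -1.38 without replicate 1 and -1.12 without replicate 2. Leaving out 1 siControl library under TMM, added after seeing the data, gave 9 to 22 lower and 3 to 6 higher. The 22 came without replicate 2, and the other counts were 9 and 11. Of all genes, 9.33% to 17.4% were lower and 8.71% to 16.1% higher in these fits. With 1 siChe-1 library left, fewer members were also called lower. Transcripts went from 9 lower and 4 higher to 17 and 2 with the deposited scaling, and to 1 to 7 and 1 to 3 without 1 library. The authors' count of 41 stayed at 35 to 41 under other minimums and a stricter threshold, and the 8 pairs without overlap became 7 to 10 without 1 library.

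Replicate numbers 1 and 2 occur in both groups of the recovered reads. With the replicate block on these 4 libraries, edgeR called 0 of 43 members on the spike-in scale, and 0.540% of all genes lower. At an unadjusted p under 0.05, 19 members were lower there and 0 higher. With TMM and the block, 21 members were lower and 5 higher, against 16.3% and 15.2% of all genes. The labels do not say that a number marks a shared batch. The correlation over genes of the differences between replicates 2 and 1 in the groups was 0.25. It comes from 1 pair of differences and cannot decide whether libraries with the same number were paired. FPKM columns carry no replicate numbers and could not be paired.

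Low depth limits EIF4EBP3 (0 to 2 reads a library) and EIF5A2 (52 to 84).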
